A study of Mus musculus with 2 samples.

Results

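The genes of the interleukin-1 family and of the inflammasome were described in single CD45+ cells of the mouse heart. They were taken by symbol from the deposited matrix, and all 10 (*Il1a*, *Il1b*, *Il18*, *Il1rn*, *Il1r2*, *Il18bp*, *Il1rap*, *Nlrp3*, *Pycard* and *Casp1*) were found among its 27809 genes. The hearts came from male mice of 8 weeks, labelled C57BL/6N as a whole (the study's methods give all its mice a C57BL/6 background), either wild type (WT) or without the T cell receptor chain CD3e (CD3e-/-, labelled CD3eKO), which were operated on 1 week earlier by a sham procedure or by transverse aortic constriction (TAC), a band on the aorta that loads the left ventricle with pressure. The 5 groups were WT sham, CD3e-/- sham, WT TAC, CD3e-/- TAC and WT mice given TAC together with an antibody against CD8. The last is called anti-CD8 TAC in the text and CD8-depleted TAC in the figures, and any 5 values in a row follow the order of this list. A hashtag on each cell marked its group, and all groups went into 1 library made by the TAS-Seq protocol with BD Rhapsody, which barcodes the RNA of single cells in microwells. How many hearts were pooled per hashtag is not given in the sources used here. The CD3e-/- mice lacked the gene in every cell from birth, so an effect of having no T cells under load and one of having grown up without them cannot be told apart. Each group was 1 sample, so no test was possible, no p-value is given and differences are given as values.

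Interleukin-1 alpha and beta, encoded by *Il1a* and *Il1b*, are cytokines that start inflammation through a common receptor, and *Il18* encodes a relative that acts above all on T cells and natural killer cells. Interleukin-1 beta and interleukin-18 are made as inactive precursors, and caspase-1 (*Casp1*) cuts them once a sensor such as NLRP3 and the adaptor ASC (*Pycard*) have assembled an inflammasome, so a high RNA level alone does not tell how much active cytokine is released. The pathway is held back at several points, by the receptor antagonist (*Il1rn*), by the decoy receptor (*Il1r2*) and by the binding protein of interleukin-18 (*Il18bp*), while *Il1rap* encodes the accessory chain that both the signalling and the decoy receptor use. In the heart, monocytes, macrophages and neutrophils are known sources of interleukin-1 beta after injury or pressure load.

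The promoters of 4 members are shown first, because the results turn on them. *Il1b*, *Il1rn* and *Nlrp3* were highest in the same cell class and *Il18bp* was highest where interferon genes were. They are windows of 300 bases from RefSeq (GRCm38.p6), from 250 bases before a transcription start to 50 bases after it, written 5′ to 3′ in the direction of the gene. Capitals mark matches, on either strand, to a TATA box (TATAAA), an AP-1 site (TGANTCA), a C/EBP site (TTGCNNAA) or the kappaB motif of the transcription factor NF-kB.
Il1b, chr2:129371090-129371389, minus strand: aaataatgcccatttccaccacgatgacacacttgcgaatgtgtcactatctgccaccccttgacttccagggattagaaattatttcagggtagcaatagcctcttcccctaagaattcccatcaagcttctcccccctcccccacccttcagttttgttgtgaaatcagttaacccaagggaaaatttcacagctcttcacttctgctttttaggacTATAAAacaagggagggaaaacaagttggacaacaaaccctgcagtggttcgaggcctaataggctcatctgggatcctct
Il1rn, upstream start, chr2:24336610-24336909, plus strand: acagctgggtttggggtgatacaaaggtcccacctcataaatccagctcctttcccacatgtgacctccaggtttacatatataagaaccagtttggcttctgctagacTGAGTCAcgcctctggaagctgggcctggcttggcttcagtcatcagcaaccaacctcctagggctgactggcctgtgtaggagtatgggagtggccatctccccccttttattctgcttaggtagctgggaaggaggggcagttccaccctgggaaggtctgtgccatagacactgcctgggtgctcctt
Il1rn, downstream start, chr2:24345121-24345420, plus strand: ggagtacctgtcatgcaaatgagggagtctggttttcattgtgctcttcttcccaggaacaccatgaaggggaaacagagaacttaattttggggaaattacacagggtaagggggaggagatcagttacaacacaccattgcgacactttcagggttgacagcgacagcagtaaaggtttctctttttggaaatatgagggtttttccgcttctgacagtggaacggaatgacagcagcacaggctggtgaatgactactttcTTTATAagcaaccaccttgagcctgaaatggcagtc
Nlrp3, upstream start, chr11:59541319-59541618, plus strand: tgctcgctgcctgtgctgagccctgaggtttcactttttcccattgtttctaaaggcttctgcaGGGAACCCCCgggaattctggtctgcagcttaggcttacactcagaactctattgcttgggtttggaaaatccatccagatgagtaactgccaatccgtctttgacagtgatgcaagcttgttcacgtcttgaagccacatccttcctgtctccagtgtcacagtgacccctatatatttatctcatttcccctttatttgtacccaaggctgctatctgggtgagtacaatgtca
Il18bp, chr7:102018183-102018482, minus strand: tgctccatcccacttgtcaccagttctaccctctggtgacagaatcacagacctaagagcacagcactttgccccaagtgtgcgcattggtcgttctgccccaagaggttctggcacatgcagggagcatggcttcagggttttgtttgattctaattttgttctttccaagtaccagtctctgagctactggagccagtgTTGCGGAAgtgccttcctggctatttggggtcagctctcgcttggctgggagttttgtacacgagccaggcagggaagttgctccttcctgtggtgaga

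All 10 members matched the RefSeq table, with 13 windows in all since *Il1rn* had 3 and *Nlrp3* 2 windows. The *Il1b* window held TATAAA with its first base 31 bases before the start. A TATA match was in 4 of the 13 windows (of *Il1a*, *Il1b*, *Il18* and *Il1rn*), against 13.6% of 32851 windows of all genes. The *Il1a* match lay 32 bases before the start. The matches of *Il18*, 175 bases before the start, and of *Il1rn*, 15 bases after it, were on the opposite strand and away from the usual place of a TATA box. The upstream *Il1rn* window held the AP-1 letters TGAGTCA and the *Il1a* window, at chr2:129309923-129310222, TGACTCA, against a match in 7.81% of all windows. The *Nlrp3* window held the kappaB motif at 1 place where it read on both strands (8.46% of all windows had a match), and the *Il18bp* window held the C/EBP letters TTGCGGAA (10.8% of all windows). The motif TTCNNNGAA of interferon-activated factors matched a window of *Il1r2* alone (8.30% of all windows), and GAAANNGAA, the core of the interferon-stimulated response element, a window of *Il1rap* alone (8.56%). The other searches, for GAGGAA (28.3% of all windows) and for CACGTG (7.15%), matched 4 and 2 of the 13 windows. These matches describe letters in short windows and say nothing of binding.

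Of 5363 barcodes, none of them shared between groups, 5263 cells were kept after barcodes without a hashtag, doublets and cells of poor quality had been left out, namely 1000, 835, 1615, 919 and 894 per group. Levels are given as CPM, the reads of a gene summed over the cells of a group or class per 1000000 of all their reads. The median cell had 75442, 78372, 98869, 117788 and 98471 reads, more in TAC than in sham groups. Intervals are exact 95% Poisson intervals for summed reads and exact Clopper-Pearson intervals for shares of cells. Both cover counting error alone, and since the counts are reads and not molecules, and the cells of a group are not independent samples, they are too narrow. As a check of the labels, *Cd3e* had 17.8, 3.73, 10.8, 5.64 and 13.6 CPM and *Cd3g* 45.6, 0.555, 17.5, 0.0661 and 22.5 CPM, both lower in the CD3e-/- groups. In monocytes and macrophages the few *Cd3e* reads went the other way, at 2.30, 5.42, 3.40, 5.94 and 3.11 CPM, and *Cd3e* was read in 69, 42, 103, 83 and 51 of all kept cells, so the check rests on the summed levels over all cells. *Cd8a* was read in 9, 2, 16, 4 and 8 cells, at 9.81, 0.979, 7.40, 0.558 and 6.55 CPM, so these few cells showed no clear loss in anti-CD8 TAC, and any direction drawn from this group rests on its label.

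Cells were sorted into classes by their single-cell CPM of 7 genes. Monocytes and macrophages had at least 200 CPM of *Csf1r* and 2000 CPM of *Lyz2*, and made up 3299 of the 5263 cells. Among them, 526 Ly6c2-high cells (500 CPM or more of *Ly6c2*) had 5 of 7 monocyte markers at 2 or more times the level of the other cells, 192 Lyve1-high cells (200 CPM of *Lyve1*) had 7 of 8 macrophage markers and 1392 Ccr2-low Lyve1-low cells had 5 of 8. The 1189 Ccr2-high cells (1000 CPM of *Ccr2*) passed this limit for 1 monocyte marker and 0 macrophage markers, at a summed macrophage marker level of 5049.5 CPM, while B cell-like cells had 87.5, so they are called by their gate gene alone. Cells with 200 CPM of *Cd209a* that were below the limits of *Ly6c2* and *Lyve1* were kept apart, and these 405 Cd209a-high cells had all 5 markers of conventional dendritic cells type 2 and 430 B cell-like cells (1000 CPM of *Cd79a*) all 4 B cell markers. Cells high in both *Cd79a* and *Csf1r* (37) entered no class. The remaining 1092 cells were parted, after the data had been seen, by the marker list with the most genes at 50 CPM (at least 3). This gave 45 neutrophil-like cells with 8 of 8 measured markers, a count that follows from their choice by the same list. The other lists hold the gate genes *Ly6c2* and *Ccr2*, *Lyve1*, *Cd209a* and *Cd79a*, so the marker counts of the gated classes are in part set by the gates.

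*Il1b* was read in all groups and was led by a few cells. In monocytes and macrophages the summed level of *Il1b* was 431 CPM (interval 425 to 437) in WT sham, 817 CPM (interval 809.6 to 825) in CD3e-/- sham, 491 CPM (interval 487 to 495) in WT TAC, 547 CPM (interval 543 to 552) in CD3e-/- TAC and 488 CPM (interval 483 to 493) in anti-CD8 TAC. CD3e-/- sham was the highest by a wide margin, with a log2 ratio to WT sham of 0.92, and the levels of the other 4 groups lay between that of WT sham and that of CD3e-/- TAC. The reads were uneven, since 24 of 541 cells in WT sham and 46 of 1054 cells in WT TAC held 50% of the *Il1b* reads. Shares of cells with a read depend on depth, so every cell was thinned to 30000 reads, which left 513, 435, 1021, 641 and 573 monocytes and macrophages and left out 28, 20, 33, 18 and 17. The thinned share with an *Il1b* read was 46.6%, 58.6%, 51.0%, 57.7% and 49.9%, and 58.0%, 71.4%, 65.7%, 73.4% and 66.9% without thinning. Of 365 thinned B cell-like cells, which should lack the gene, 17.3% had a read (430 cells with a median of 46798 reads before thinning, against 98029 in monocytes and macrophages), far below every group.

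The level of *Il1b* depended on the cell class. Over all groups it was 881 CPM in Ly6c2-high monocyte-like cells, 608 in Cd209a-high cells, 545 in Ccr2-high cells, 427 in Ccr2-low Lyve1-low cells and 52.1 in Lyve1-high cells. B cell-like cells, taken as the background of free RNA, had 26.2 CPM, so Lyve1-high macrophage-like cells stood closest to the background and the other classes far above it. By group, Lyve1-high cells had 7.30, 231, 21.1, 10.7 and 65.9 CPM, with 14 cells in CD3e-/- TAC, and 2 of the 30 cells in CD3e-/- sham held 50% of the reads behind the highest of these values. Cd209a-high cells had 397, 669, 394, 1259 and 799 CPM, where the 37 cells of CD3e-/- TAC gave the highest level. In Ccr2-low Lyve1-low cells the order was another one, with 448, 891, 382, 266 and 345 CPM, and CD3e-/- TAC was the lowest.

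The neutrophil-like cells had by far the most *Il1b*, 17469.7 CPM over all groups. These 45 cells were 0.855% of all kept cells and held 10.8% of all *Il1b* reads. Their number was 0, 4, 12, 11 and 18 per group, and in WT sham, where *S100a8* and *S100a9* had 0 reads, 0 of 1000 cells allow a share of up to 0.3% by 3 cells and 0.368% by the exact interval. In anti-CD8 TAC they held 27.0% of the *Il1b* reads of the group, against 7.76% in WT TAC and 8.30% in CD3e-/- TAC. Each group had fewer than 20 of these cells, so no level by group is given for them.

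**Figure D1:**
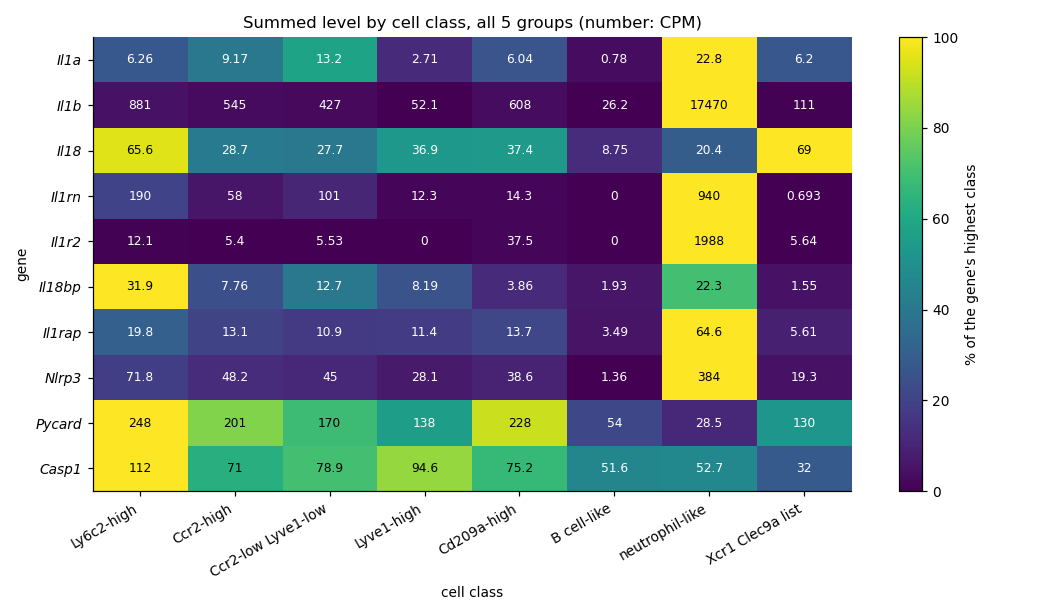
Summed level of each member (rows) in 8 cell classes (columns) over all 5 groups, with the CPM written in each field and the colour showing the percentage of the gene's highest class. The column named for Xcr1 and Clec9a holds the cells of the remaining CD45+ cells with most markers of conventional dendritic cells type 1. Il1b, Il1rn, Il1r2 and Nlrp3 were highest in neutrophil-like cells, while Pycard and Casp1 were, of these columns, highest in Ly6c2-high cells.

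*Il1a* was low everywhere. In monocytes and macrophages it had 11.9, 19.8, 4.72, 12.3 and 6.83 CPM and stayed under the limit of 20 CPM, at which a gene entered the comparisons, in every group. Between 53.8% and 89.7% of its reads in a group came from the 1% of cells with the most reads, so its order among groups rests on a handful of cells. The thinned share of these cells with an *Il1a* read was 3.12%, 5.75%, 2.35%, 5.15% and 1.92% (4.99%, 7.91%, 3.89%, 6.98% and 3.90% unthinned), against 0.274% of B cell-like cells.

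*Il18* was spread more evenly, at 25, 35.3, 31.5, 40.2 and 43.6 CPM in monocytes and macrophages, lowest in WT sham and highest in anti-CD8 TAC. The share of thinned cells with a read was 15%, 18.9%, 19.9%, 27.8% and 26.2% (19.2%, 24.6%, 27.2%, 37.6% and 32.2% unthinned), against 3.01% of B cell-like cells. Of the classes, Ly6c2-high cells had 65.6 CPM over all groups, ahead of Cd209a-high (37.4), Lyve1-high (36.9), Ccr2-high (28.7) and Ccr2-low Lyve1-low cells (27.7), while B cell-like cells had 8.75. In the Ly6c2-high class *Il18* had 44.8, 51.0, 65.5, 61.4 and 78.7 CPM, with both sham groups below the 3 TAC groups. These sham levels rest on few cells, since 6 of 25 thinned cells in WT sham and 10 of 34 in CD3e-/- sham had a read. The intervals of these shares reach up to 45.1% and 47.5%, above the TAC shares of 31.4%, 40.1% and 41.4%. The 141 cells with most markers of conventional dendritic cells type 1, which present antigen to CD8+ T cells, had 69.0 CPM of *Il18* and 111 CPM of *Il1b*. Lyve1-high cells, which had little *Il1b*, had more *Il18* than the Ccr2-high and the Ccr2-low Lyve1-low class.

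**Figure D2:**
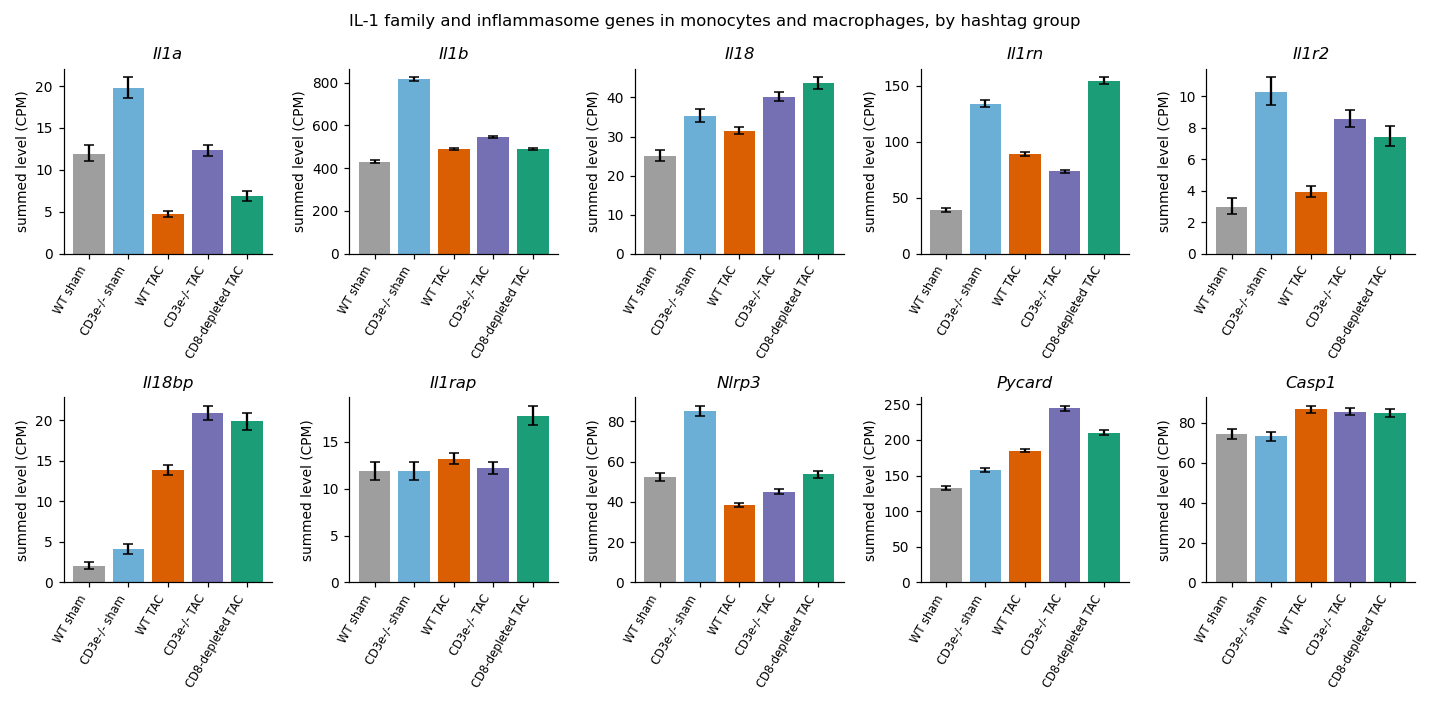
Summed level (CPM, vertical axes that start at 0) of the 10 members in monocytes and macrophages of the 5 groups, with exact 95% Poisson intervals that cover counting error alone. Il18bp was between 13.9 and 20.8 CPM in the TAC groups and at most 4.09 in the sham groups, while Casp1 stayed between 73.1 and 86.7 CPM.

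*Il1rn*, the receptor antagonist, differed widely among groups. In monocytes and macrophages its level was 39.1 CPM (interval 37.4 to 40.9) in WT sham, 134 CPM (interval 131 to 137) in CD3e-/- sham, 88.8 CPM (interval 87.2 to 90.4) in WT TAC, 73.4 CPM (interval 71.8 to 75.1) in CD3e-/- TAC and 154 CPM (interval 152 to 157) in anti-CD8 TAC. WT sham was the lowest and anti-CD8 TAC the highest. The summed level of *Il1rn* was higher with TAC in WT hearts (log2 ratio 1.09) and lower with TAC in CD3e-/- hearts (-0.83). The share of cells with an *Il1rn* read did not follow this order. At 30000 reads per cell it was 6.43%, 12.6%, 16.8%, 22.0% and 18.7%, and without thinning 6.47%, 12.3%, 17.1%, 23.4% and 19.8%, so CD3e-/- TAC had the most cells with a read but not the highest level, and no order is read from the share. In B cell-like cells 0 of 365 had a read, which allows up to 0.822% by 3 cells and 1.01% by the exact interval.

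Few cells carried the *Il1rn* reads. In CD3e-/- sham 5 of 455 monocytes and macrophages held 50% of the *Il1rn* reads, against 21 of 659 in CD3e-/- TAC. Among cells with a read, the median *Il1rn* level was 236, 255, 189, 147 and 261 CPM. Without the 1% of cells highest in *Il1rn* in each group, the summed levels were 22.1, 75.2, 49.4, 59.4 and 118 CPM, with CD3e-/- sham still above WT sham by more than 2-fold. As the mean of single-cell CPM, in which each cell weighs the same, *Il1rn* had 21.7, 71.3, 68.4, 89.5 and 123 CPM, and CD3e-/- TAC was then above CD3e-/- sham. The direction of the TAC difference in CD3e-/- hearts turned with the way the cells are weighed, while in WT hearts TAC was higher than sham both ways.

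By class, *Il1rn* was highest in Ly6c2-high monocyte-like cells, at 190.2 CPM over all groups, followed by Ccr2-low Lyve1-low (101) and Ccr2-high cells (58.0), and was low in Cd209a-high (14.3) and Lyve1-high cells (12.3). Cd209a-high cells had much *Il1b* with little *Il1rn*. In Ly6c2-high cells *Il1rn* had 112, 345, 152, 125 and 306 CPM, and 1 of the 34 cells in CD3e-/- sham held 50% of the reads of that group. In Ccr2-low Lyve1-low cells it had 45.9, 162, 111, 51.4 and 163 CPM, with WT sham and CD3e-/- TAC lowest. The 8 measured neutrophil markers had a summed level of 81.8, 183, 187, 168 and 239.7 CPM in monocytes and macrophages, lowest in WT sham like *Il1rn*. Without the 3, 3, 12, 16 and 10 cells with 3 or more of these markers, *Il1rn* was still at 39.1, 134, 88.9, 73.2 and 153 CPM. Neutrophil-like cells themselves had 939.7 CPM of *Il1rn*.

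**Figure D3:**
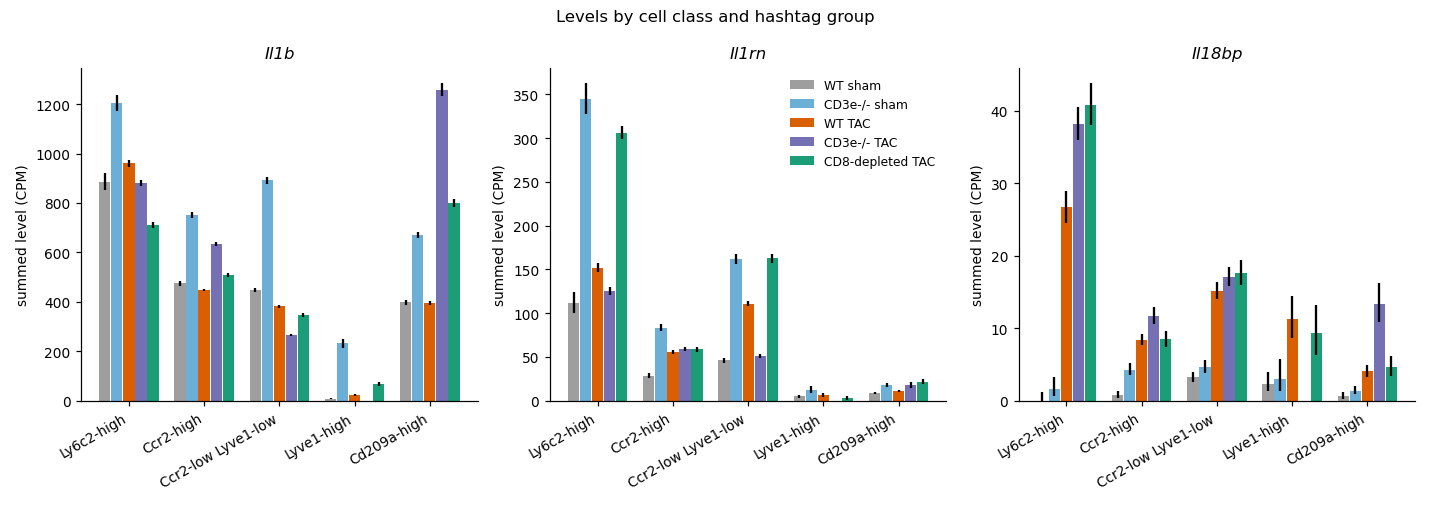
Summed level (CPM, axes from 0) of Il1b, Il1rn and Il18bp in 5 cell classes, with a bar per group and exact 95% Poisson intervals for counting error alone. Lyve1-high cells of CD3e-/- TAC were fewer than 20 and have no bar. Il1b and Il1rn were low in Lyve1-high cells, and Il18bp was highest in Ly6c2-high cells of the TAC groups.

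*Il18bp*, whose product binds and blocks interleukin-18, differed most between sham and TAC. In monocytes and macrophages it had 2.08 CPM (interval 1.70 to 2.52) in WT sham and 4.09 CPM (interval 3.56 to 4.69) in CD3e-/- sham. After TAC it had 13.9 CPM (interval 13.3 to 14.5) in WT, 20.8 CPM (interval 19.97 to 21.7) in CD3e-/- and 19.9 CPM (interval 18.9 to 20.9) in anti-CD8 TAC. The 3 TAC groups were above both sham groups in level and in the share of cells with a read, which was 1.75%, 2.99%, 8.03%, 11.2% and 11.7% at 30000 reads per cell (2.4%, 5.71%, 11.5%, 15.6% and 13.6% unthinned) against 2.19% in B cell-like cells, near the sham groups. The log2 ratio of TAC to sham was 1.42 in WT and 1.51 in CD3e-/- hearts with 5 CPM added, which understates the ratio of such a low gene. *Il18bp* passed the limit of 20 CPM through CD3e-/- TAC alone.

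The TAC groups were above both sham groups in *Il18bp* level and share in 3 of the 4 classes of monocytes and macrophages. Lyve1-high cells had 2.32, 2.99, 11.2, 16.9 and 9.33 CPM, but these rest on 3, 2, 3, 1 and 1 cells with a read (4.35%, 6.67%, 6%, 7.14% and 3.45% unthinned), so no order is read in that class. In Ly6c2-high cells the level was 0, 1.56, 26.7, 38.2 and 40.8 CPM, with 0 reads in the 25 cells of WT sham, so no ratio is given for that pair. Ccr2-low Lyve1-low cells had 3.20, 4.61, 15.2, 17.1 and 17.6 CPM and Ccr2-high cells 0.779, 4.27, 8.38, 11.7 and 8.42 CPM. In Cd209a-high cells it was 0.616, 1.35, 4.01, 13.3 and 4.62 CPM. Only 0, 1, 5, 2 and 3 thinned cells had a read there, so no order is read in that class either. The 7 interferon-responsive genes of a list (*Isg15*, *Ifit1*, *Ifit2*, *Ifit3*, *Rsad2*, *Cxcl10* and *Irf7*) had summed levels of 203, 305, 1091, 1296 and 1708 CPM in monocytes and macrophages, also higher in the 3 TAC groups. In Ly6c2-high cells they had 1239, 1345, 3233, 3176 and 4577 CPM. *Il18bp* was read in 0 of 25 thinned cells of this class in WT sham and in 2 of 34 in CD3e-/- sham. The exact intervals of these shares reach up to 13.7% and 19.7%, against a share of 13.5% in WT TAC. The sham cells of this class are thus too few to call *Il18bp* absent beside their interferon reads.

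In single cells *Il18bp* was read more often beside *Isg15*, a gene that type I interferon induces. Among WT TAC monocytes and macrophages thinned to 30000 reads, 16.9% (interval 12.4 to 22.4) of those with an *Isg15* read had an *Il18bp* read, against 5.35% (interval 3.88 to 7.16) of those without one. In CD3e-/- TAC the shares were 18.9% (interval 14.2 to 24.4) against 6.53% (interval 4.31 to 9.43) and in anti-CD8 TAC they were 21.1% (interval 15.7 to 27.4) against 6.68% (interval 4.37 to 9.71). In the sham groups too few cells had either read, with 2 of 55 *Isg15* cells in WT sham and 1 of 54 in CD3e-/- sham. *Il1rn*, *Il18* and *Casp1* also had higher shares beside *Isg15*. In WT TAC *Il1rn* was read in 32.2% (interval 26.3 to 38.6) against 12.2% (interval 10.02 to 14.7), *Il18* in 31.8% (interval 25.9 to 38.1) against 16.3% (interval 13.8 to 19.1) and *Casp1* in 51.7% (interval 45.1 to 58.2) against 38.9% (interval 35.4 to 42.4). Ly6c2-high cells had both more interferon reads and more of these members than the other classes, and the part of the class in these shares was not tested.

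**Figure D4:**
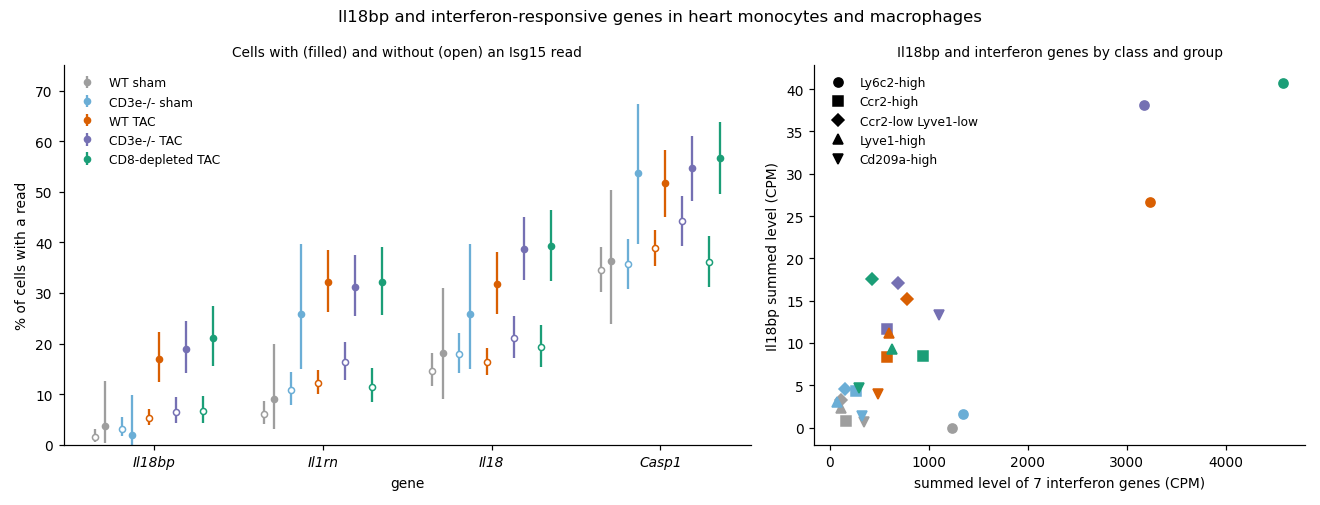
Left, percentage of monocytes and macrophages with a read of Il18bp, Il1rn, Il18 or Casp1 among cells with (filled) and without (open) an Isg15 read in the 5 groups, at 30000 reads per cell and with exact 95% Clopper-Pearson intervals. Right, summed Il18bp level against the summed level of 7 interferon genes (CPM) in each class (shape) and group (colour as on the left), with Ly6c2-high cells of the TAC groups highest in both.

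*Il1r2*, the decoy receptor that binds interleukin-1 without a signal, was read above all in neutrophil-like and Cd209a-high cells. Neutrophil-like cells had 1988 CPM and held 38.6% of all *Il1r2* reads, and Cd209a-high cells had 37.5 CPM and held 24.5%. In monocytes and macrophages it had 2.98, 10.3, 3.93, 8.57 and 7.43 CPM in 1.17%, 3.45%, 1.27%, 4.52% and 3.66% of thinned cells (1.11%, 3.74%, 1.33%, 4.86% and 3.56% unthinned), under the limit of 20 CPM. It had 0 reads in Lyve1-high and in B cell-like cells. In Cd209a-high cells its level was 26.1, 35.5, 32.7, 84.9 and 31.4 CPM, highest in CD3e-/- TAC. The summed level of *Il1b*, but not its share of cells with a read, was highest there too.

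*Il1rap*, the accessory chain, was low and even, at 11.8, 11.9, 13.2, 12.2 and 17.8 CPM in monocytes and macrophages, and over all groups its levels in the 4 classes lay between 10.9 CPM in Ccr2-low Lyve1-low and 19.8 in Ly6c2-high cells. B cell-like cells had 3.49 CPM and neutrophil-like cells 64.6. It stayed under 20 CPM in all groups of monocytes and macrophages, and was read in 4.87%, 8.97%, 9.99%, 6.86% and 11% of thinned cells (6.65%, 13.4%, 13.8%, 12.7% and 14.2% unthinned), against 2.47% of B cell-like cells.

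Of the inflammasome genes, *Nlrp3*, which encodes the sensor, was higher in CD3e-/- sham than in WT sham, as *Il1b* was. Its level in monocytes and macrophages was 52.2, 84.9, 38.6, 45 and 53.8 CPM, highest in CD3e-/- sham and lowest in WT TAC, with intervals within 3.87% of the level. The log2 ratio of TAC to sham was -0.39 in WT and -0.85 in CD3e-/- hearts, both short of 2-fold. An *Nlrp3* read was found in 25%, 30.8%, 22.4%, 29.3% and 30.4% of thinned cells (29.8%, 37.6%, 31.2%, 42.5% and 39.7% unthinned), against 2.74% of B cell-like cells. Ly6c2-high cells had the most *Nlrp3* among the classes of monocytes and macrophages (71.8 CPM) and Lyve1-high cells the least (28.1), while neutrophil-like cells had 384. In Ccr2-low Lyve1-low cells the level was 52.8, 96.4, 24.9, 37.6 and 43.0 CPM, where all TAC groups were below both sham groups. The thinned share of these cells with a read was 24.9%, 29.6%, 14.9%, 19.6% and 26.4%, so by share anti-CD8 TAC was above WT sham.

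*Pycard*, the adaptor, was higher in the TAC groups. It had 132, 158, 185, 244 and 210.2 CPM in monocytes and macrophages, and a read in 46.6%, 49.4%, 60.5%, 71.9% and 62.5% of thinned cells (52.1%, 57.1%, 68.0%, 77.1% and 69.0% unthinned) against 21.1% of B cell-like cells. The log2 ratios of TAC to sham were 0.47 in WT and 0.61 in CD3e-/- hearts. In Ly6c2-high cells *Pycard* did not have this order, with 294, 295, 257, 232 and 242 CPM, and in Ccr2-low Lyve1-low cells CD3e-/- TAC stood out, with 122, 114, 138, 262 and 183 CPM. Without the 4, 1, 9, 41 and 15 cells in which *Saa3* and *Prg4* summed to 200 CPM or more, markers of macrophages of body cavities, *Pycard* was at 133, 158, 185, 216 and 200.3 CPM in all monocytes and macrophages. Neutrophil-like cells had little *Pycard* (28.5 CPM) beside much *Il1b*.

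*Casp1*, the protease, was the most even member, with 74.3, 73.1, 86.7, 85.4 and 84.8 CPM in monocytes and macrophages. Over all groups its levels in the 4 classes lay between 71.0 CPM in Ccr2-high and 112 in Ly6c2-high cells, and Lyve1-high cells had 94.6. B cell-like cells had 51.6 CPM and a *Casp1* read in 16.2% of cells, while *Nlrp3* had 1.36 CPM there and *Il1rn* 0. The thinned share of monocytes and macrophages with a *Casp1* read was 34.7%, 37.9%, 41.8%, 48.2% and 43.3% (39.6%, 46.2%, 49.4%, 57.5% and 51.4% unthinned).

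**Figure D5:**
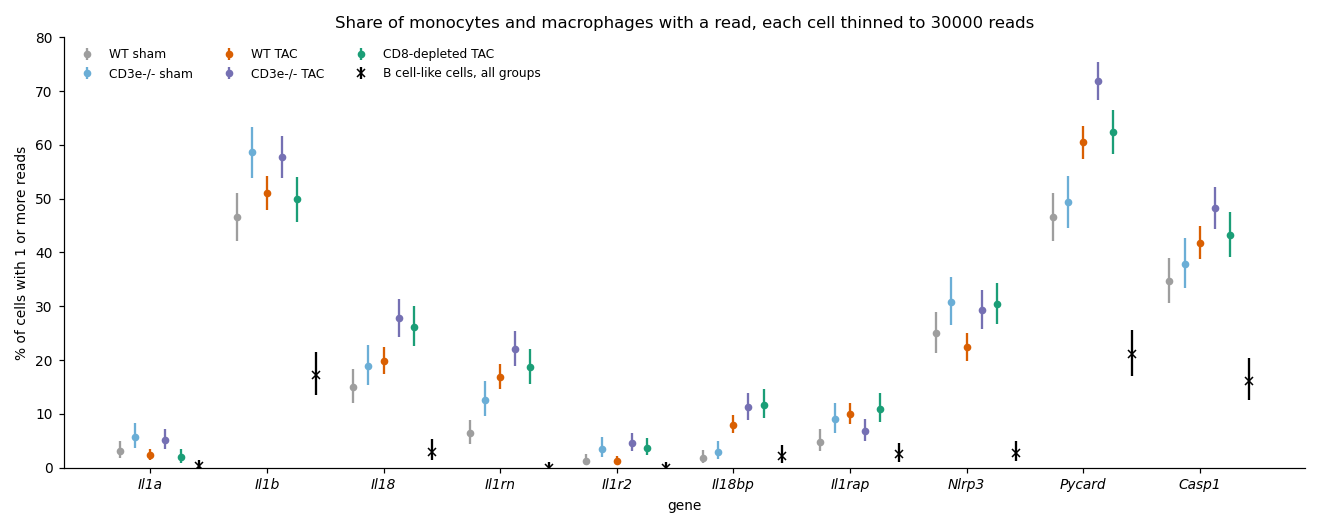
Percentage of monocytes and macrophages with 1 or more reads of each member in the 5 groups (coloured points), each cell thinned to 30000 reads, and of B cell-like cells over all groups (crosses), with exact 95% Clopper-Pearson intervals for counting error alone. The shares of Il1rn, Nlrp3 and Pycard were above those of B cell-like cells in every group, and Il18bp was near the B cell-like share in the sham groups.

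Cells with an *Il1b* read were compared with the other monocytes and macrophages for *Nlrp3*, *Il1rn*, *Casp1* and *Il18*, at 30000 reads per cell. In WT TAC *Nlrp3* was read in 28.2% (interval 24.4 to 32.3) against 16.4% (interval 13.3 to 19.9), and *Il1rn* in 21.9% (interval 18.4 to 25.7) against 11.6% (interval 8.93 to 14.7). In CD3e-/- TAC *Nlrp3* was read in 34.1% (interval 29.2 to 39.1) against 22.9% (interval 18.0 to 28.3) and *Il1rn* in 27.6% (interval 23.1 to 32.4) against 14.4% (interval 10.4 to 19.1). In WT sham both genes were also read more often beside *Il1b*, but with overlapping intervals. The shares there were 27.2% (interval 21.7 to 33.3) against 23.0% (interval 18.1 to 28.4) for *Nlrp3* and 8.37% (interval 5.19 to 12.6) against 4.74% (interval 2.55 to 7.98) for *Il1rn*. *Casp1* differed less, with 44.2% against 38.9% over all groups, and *Il18* with 22.6% against 20.6%. Most cells with an *Il1b* read had no *Il1rn* read at this depth. Ly6c2-high cells had more *Il1b*, *Nlrp3* and *Il1rn* than the other classes of monocytes and macrophages. The part of the class in these shares was not tested.

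Over the 34 combinations of class and group with at least 20 cells, all from 1 library, the genes whose log2 level was most like *Il1b* among 7012 genes were *Osm* (Pearson's r 0.909), a cytokine gene of the interleukin-6 family, *Ccrl2* (0.908), which encodes an atypical receptor of chemerin, and *Tkt* (0.904), which encodes transketolase. For *Il1rn* they were *Clec4e* (0.932), a C-type lectin gene, *Gsr* (0.908), which encodes glutathione reductase, and *Msrb1* (0.904). For *Il18* they were *Pnp* (0.901), *Itga5* (0.900), which encodes an integrin chain, and *Trex1* (0.900), a DNA exonuclease gene. For *Casp1* they included *Oas2* (0.797), an interferon-induced gene, and *Abi1* (0.760). Among the members, *Il1b* was most like *Nlrp3* (0.812) and *Il1rn* (0.795) and least like *Casp1* (0.225), and *Il18* was most like *Pycard* (0.832). These are descriptions over units that share classes, groups and 1 library.

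The groups were then compared by the log2 ratio of summed levels with 5 CPM added, and a gene with at least 20 CPM in 1 or more groups was called when this ratio passed 2-fold in either direction. *Il1b*, *Il18*, *Il1rn*, *Il18bp*, *Nlrp3*, *Pycard* and *Casp1* passed the limit of 20 CPM, while *Il1a*, *Il1r2* and *Il1rap* did not. For pressure overload in WT hearts, 2 of the 10 members were past 2-fold, *Il1rn* (1.09) and *Il18bp* (1.42), both higher with TAC, against 2.44% of all 7338 genes compared. In CD3e-/- hearts 1 member, *Il18bp* (1.51), was past 2-fold and higher with TAC, against 3.41% of all genes. Between the genotypes without pressure load, 1 member, *Il1rn*, was past 2-fold and higher in CD3e-/- sham (1.66), against 0.831% of all genes. After TAC, 0 members were past 2-fold between CD3e-/- and WT (0.695% of all genes) and 0 between anti-CD8 and WT TAC (0.354% of all genes). With 7 members above the limit, 1 call is a large share of them, and *Il18bp* was above it only where it was high. In WT hearts both TAC calls ended with all gate cuts doubled, with 20 CPM added and with the classes weighted as in WT TAC, that of *Il1rn* also without the 25% of cells highest in dissociation genes, and that of *Il18bp* also as the mean of single-cell CPM and without the top 1% of cells. In CD3e-/- hearts the call of *Il18bp* ended in the same 5 settings that ended it in WT hearts. The comparisons share groups, among them WT sham and WT TAC, and are not independent of one another.

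The members not called kept to narrower ratios. With TAC in WT hearts *Il1b* had a log2 ratio of 0.19, *Il18* of 0.28 and *Casp1* of 0.21. With TAC in CD3e-/- hearts *Il1b* had -0.57, *Nlrp3* -0.85 and *Pycard* 0.61. Between anti-CD8 and WT TAC *Il1rn* had the highest ratio of the members above 20 CPM (0.77), followed by *Nlrp3* (0.43). Over the 7 members above 20 CPM, *Il18bp* among them, the median log2 ratio was 0.28 with TAC in WT hearts (0.03 over all genes), 0.17 with TAC in CD3e-/- hearts (0.05), 0.42 for CD3e-/- sham against WT sham (-0.02), 0.20 for CD3e-/- TAC against WT TAC (0.00) and 0.40 for anti-CD8 against WT TAC (0.01).

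Weighing the 4 classes of monocytes and macrophages in each group as in WT TAC changed some of these values. *Il1rn* then had 47.3, 151, 88.8, 66.6 and 134 CPM and *Il18bp* 1.56, 3.89, 13.9, 18.1 and 17.0 CPM, so *Il1rn* was no longer past 2-fold between WT TAC and WT sham, and *Il18bp* kept its ratios but was under 20 CPM in every group. Between CD3e-/- TAC and CD3e-/- sham *Il1rn* was then past 2-fold and lower with TAC. The share of Ly6c2-high cells among kept cells was 2.5%, 4.07%, 9.72%, 18.3% and 15.9%, higher in the TAC groups. The 11 immediate early and heat shock genes of another list, which the digestion of tissue is known to induce, moved the other way, with summed levels of 18052, 16069, 9303, 8387 and 9396 CPM in monocytes and macrophages. Cells in the upper part of this list, parted at its median, had more *Il1b*, at 544, 1069.7, 727, 801 and 698 CPM, than those in the lower part, at 238, 348, 285, 317 and 273 CPM. *Nlrp3* had 62.4, 107, 51.2, 61.4 and 73.2 CPM in the upper and 34.6, 44.4, 27.5, 30.2 and 33.8 in the lower part. The part of these genes in the differences between groups was not tested. CD3e-/- sham had the highest *Il1b* in both parts.

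Of 52 other genes of the pathway that had been listed, 46 were in the matrix and 31 had 20 CPM or more in a group of monocytes and macrophages. With TAC in WT hearts 5 of the 31 were past 2-fold, against 2.44% of all genes compared. Higher was 1, *Mefv* (46.8 against 15 CPM), which encodes the inflammasome sensor pyrin. Lower by more than 2-fold were 4, the interleukin-33 receptor gene *Il1rl1* (28.5 against 96.4 CPM), the NF-kB regulator *Nfkbiz* (231 against 578 CPM) and the cytokine genes *Cxcl1* (15.7 against 48.8 CPM) and *Il6* (5.23 against 24.1 CPM). With TAC in CD3e-/- hearts 6 were past 2-fold, against 3.41% of all genes. *Mefv* was again higher (58.9 against 22.3 CPM) and 5 were lower, namely *Il1rl1* (13 against 69.6 CPM), *Nfkbiz* (276 against 605 CPM), the NF-kB inhibitor *Tnfaip3* (68.7 against 146 CPM) and the chemokine genes *Ccl3* (201 against 592 CPM) and *Ccl4* (160.1 against 403 CPM). Between CD3e-/- TAC and WT TAC *Cxcl1* (62.5 against 15.7 CPM) and *Il6* (16.6 against 5.23 CPM) were past 2-fold and higher, against 0.695% of all genes. *Il6* was under 20 CPM in both groups of this pair and was compared only because another group, such as WT sham, passed the limit. In CD3e-/- sham against WT sham (0.831% of all genes) and in anti-CD8 against WT TAC (0.354%) 0 of the 31 were past 2-fold. Mast cell-like cells and cells with most type 2 innate lymphoid markers, which are rich in *Il1rl1*, were fewer with TAC. The part of their free RNA in the *Il1rl1* levels given here was not tested.

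The receptor genes lay mostly outside monocytes and macrophages. *Il1r1*, the signalling receptor of interleukin-1, had 1.4 CPM there and 66.3 in the 78 cells with most T cell markers. *Il18r1* and *Il18rap*, the chains of the interleukin-18 receptor, had 1.92 and 12.5 CPM in monocytes and macrophages, against 93.8 and 356 in the 50 cells with most natural killer cell markers. *Il1rl1* had 2729 CPM in mast cell-like cells and 889 in cells with most markers of type 2 innate lymphoid cells, a list that holds it. Mast cell-like cells were 3.6% of kept cells in WT sham and 0.433% in WT TAC, and 3.35% and 0.109% in CD3e-/- hearts. The cells of the other list were 4.4% and 0.372% in WT hearts and 3.71% and 0.326% in CD3e-/- hearts.

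Genes downstream of the inflammasome and of the receptor were read throughout. *Gsdmd*, which encodes the pore protein that caspase-1 cuts, had 84.6, 71.2, 101, 109.8 and 103 CPM in monocytes and macrophages, and *Myd88*, the adaptor of the receptor, 66.1, 82.0, 98.3, 140.4 and 123 CPM, lowest in WT sham and highest in CD3e-/- TAC. *Nek7*, which binds NLRP3, had 137, 126, 128, 118 and 124 CPM and hardly differed, and *Txnip*, another partner of NLRP3, 660.0, 468, 475, 350.4 and 501 CPM. *Cxcl2*, a chemokine that interleukin-1 induces, had 1403, 2401, 1060.0, 1218 and 811 CPM, highest in CD3e-/- sham like *Il1b*. In neutrophil-like cells *Cxcl2* reached 17572 CPM, *Ptgs2*, the inducible cyclooxygenase gene, 2700.0 and *Casp4* 206.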

How the data were processed

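CD45+ cells of mouse hearts were profiled in 1 pooled library of 5 hashtag groups, whose hashtags were read from the deposited notes and labels. The matrix holds counts, whole numbers of reads per gene and barcode without normalization, as deposited by the authors, who called cells, corrected errors and assigned hashtags. The submitters' processing notes name cutadapt 2.10, Bowtie2 2.4.2 and GRCm38. Of 5363 columns, 8 without a hashtag and 40 that the authors called doublets (48 in all) are mapped to no group and were left out, and no other doublet caller was run. Cells with at least 500 genes and a mitochondrial share of reads of at most 0.4 were kept. Python 3.11.15 with NumPy 2.4.6, pandas 2.3.3, SciPy 1.17.1 and matplotlib 3.10.9 was used. Pathway genes were named when past 2-fold or at 100 CPM in a class, *Il1r1* was added after its values were seen, and nearest genes were the 3 with the highest Pearson's r of log2(CPM + 5) among genes with 50 CPM in a unit, 1 of which is not reported here. Members and lists were chosen with earlier results of these data known. The ratios, thinning and nearest genes were tested on simulated data.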

Additional observations from a re-analysis of the deposited data

Results flagged for a closer look

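The TAC difference in the summed level of 3 members went in opposite directions in the 2 genotypes. *Il1rn* was higher with TAC in WT hearts (log2 ratio 1.09) and lower in CD3e-/- hearts (-0.83), a difference of 1.91, but as the mean of single-cell CPM it was higher with TAC in both (1.46 and 0.31). *Il1b* had 0.19 and -0.57, a difference of 0.76, and its direction in WT hearts was the other one under 1 of 12 alternatives. *Il1r2*, which was under 20 CPM in all groups, had 0.16 and -0.17, a difference of 0.33, and its direction in WT hearts was another under 4 of 12 alternatives and in CD3e-/- hearts under 3. The thinned share of cells with a read was higher with TAC in both genotypes for *Il1rn* (6.43% to 16.8% in WT, 12.6% to 22.0% in CD3e-/-). So it was for *Il1r2* (1.17% to 1.27% and 3.45% to 4.52%). For *Il1b* it was higher in WT (46.6% to 51.0%) and slightly lower in CD3e-/- hearts (58.6% to 57.7%). The 2 intervals in CD3e-/- hearts overlapped (53.8 to 63.3 and 53.8 to 61.6), and without thinning the share was higher with TAC (71.4% to 73.4%). No direction is thus read from the *Il1b* share in CD3e-/- hearts. With 1 sample per group these differences were not tested.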

How the results depend on the processing

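With WT TAC against WT sham, 2 members (*Il1rn* and *Il18bp*) were past 2-fold. This count was 0 with all gate cuts doubled, 0 with 20 CPM added in place of 5 and 0 with the classes weighted as in WT TAC, a weighting that also uses the 14 Lyve1-high cells of CD3e-/- TAC. It was 1 with the mean of single-cell CPM or without the 1% of cells highest in the gene (*Il1rn* each time), and 1 without the 25% of cells highest in dissociation genes (*Il18bp*). With CD3e-/- TAC against CD3e-/- sham the count of 1 (*Il18bp*) was 0 with doubled cuts, the mean of single-cell CPM, 20 CPM added, or without the top 1% of cells. It was 2 (*Il1rn* and *Il18bp*) without the cells highest in dissociation genes, and with weighted classes it stayed 1, but of *Il1rn* in place of *Il18bp*. Without the top 1% of cells the count was 2 (*Il1b* and *Il1rn*) in place of 1 for CD3e-/- sham against WT sham, and 1 (*Il1rn*) in place of 0 for anti-CD8 against WT TAC. The count for CD3e-/- TAC against WT TAC was 0 in all of these settings.

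*Il18bp* lost its calls mostly because it fell under 20 CPM in every group, since its log2 ratio was 0.62 to 2.27 in WT and 0.76 to 2.1 in CD3e-/- hearts over the 12 alternatives, below 1 only with 20 CPM added. *Il1rn* had 0.77 to 1.46 in WT and -1.17 to 0.31 in CD3e-/- hearts, above 0 in the latter only as the mean of single-cell CPM. The cause of the other moves was not tested. Of 600 log2 ratios of members recomputed, 209 moved by more than their counting interval, and of 250 shares 61, of which 34 without thinning and 27 with thinning to fewer reads. Leaving out cells with neutrophil markers or with *Saa3* and *Prg4*, chosen after seeing the data, changed no count of members. With 1 sample per group no replicate could be left out, and the spread between hearts is unknown.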

Other observations

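Outside monocytes and macrophages the inflammasome genes were read unevenly. *Pycard* had 277 CPM in the cells with most natural killer cell markers and 185 in those with most T cell markers, against 41.2 in mast cell-like cells. *Casp1* had 48.2 CPM in the first, 22.7 in the second and 3.91 in the third. The 612 remaining CD45+ cells that fell to no marker list had 439 CPM of *Il1b*, 86.5 of *Il1rn* and 43.1 of *Nlrp3*.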
